A study of Mus musculus with 24 samples.

Results

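The genes described here are 10 imprinted genes of fetal growth and cell differentiation, Dlk1, Meg3, Rian, H19, Igf2, Igf2r, Peg3, Grb10, Cdkn1c and Zdbf2, measured in mouse embryonic fibroblasts. They were taken by name from the platform annotation of the deposited array table, which holds 19661 gene symbols. Of the 10 genes, 9 had a probe set carrying their symbol alone, 1 probe set each, and all 9 passed the filter on low values. H19 had 0 probe sets under its name and was not analysed here. The list was drawn up with earlier results of these arrays known, in which Dlk1 stood near the threshold between the genotypes in transformed cells. The genes were thus selected on total RNA of transformed Het against WT cells at least for Dlk1; the values that chose the others are not recorded.

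The cells came from 6 embryos at E13.5. The 4 kinds of culture were transformed Eif4e+/- (Het), transformed wild type (WT), untransformed Het and untransformed WT, with 3 embryos of each genotype and both states grown from every embryo. Het cells carry 1 intact allele of Eif4e, the gene for the cap-binding protein of translation initiation. Transformation was by Ras and Myc; a vector-only control is not named in the labels, so all steps of transformation are compared together with the oncogenes. All cells grew in DMEM with 10% serum. Total RNA and RNA from high molecular weight polysomes (cycloheximide at 100 µg/ml, sucrose gradient of 10 to 50%) were hybridised separately to Affymetrix Mouse Gene 1.0 ST arrays, giving 24 arrays in 8 groups of 3.

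Imprinted genes are expressed mainly or only from the copy inherited from one parent, and the parental copies are told apart by DNA methylation that is set in the germ line at control regions; the methylated copy can be the silent or the expressed one, depending on the gene. Many paternally expressed members, such as Igf2, Dlk1 and Peg3, promote or accompany fetal growth, whereas maternally expressed members such as Igf2r, Grb10 and Cdkn1c often restrain it. Meg3, Rian and H19 are maternally expressed long noncoding RNAs; Meg3 and Rian lie in the same cluster as Dlk1, and Rian hosts small nucleolar RNAs. The array values do not tell the parental copies apart.

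Annotated promoters are shown for 4 of the genes whose total RNA changed with transformation, Dlk1 (the one that rose), Meg3 (noncoding), and Igf2 and Zdbf2 (the coding genes with the lowest differences), with CpG, the site of DNA methylation, in capitals. Each runs 5′ to 3′ on the gene's own strand from 250 bases before to 50 after the RefSeq start listed first for that gene, in build GRCm38.p6. Dlk1 is at chr12:109452573-109452872 on the plus strand, Meg3 at chr12:109540746-109541045 on the plus strand, Igf2 at chr7:142666767-142667066 on the minus strand and Zdbf2 at chr1:63200108-63200407 on the plus strand.
Dlk1: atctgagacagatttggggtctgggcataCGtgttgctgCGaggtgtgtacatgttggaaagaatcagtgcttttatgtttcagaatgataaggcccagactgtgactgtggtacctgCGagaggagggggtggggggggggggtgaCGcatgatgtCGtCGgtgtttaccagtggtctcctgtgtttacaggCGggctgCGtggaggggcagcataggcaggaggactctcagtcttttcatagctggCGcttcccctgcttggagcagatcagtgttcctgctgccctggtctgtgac
Meg3: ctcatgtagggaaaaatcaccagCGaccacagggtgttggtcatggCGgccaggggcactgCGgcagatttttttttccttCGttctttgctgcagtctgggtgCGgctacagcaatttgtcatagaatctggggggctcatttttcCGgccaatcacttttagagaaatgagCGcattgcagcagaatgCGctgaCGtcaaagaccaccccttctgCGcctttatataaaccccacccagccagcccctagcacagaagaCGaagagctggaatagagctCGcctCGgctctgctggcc
Igf2: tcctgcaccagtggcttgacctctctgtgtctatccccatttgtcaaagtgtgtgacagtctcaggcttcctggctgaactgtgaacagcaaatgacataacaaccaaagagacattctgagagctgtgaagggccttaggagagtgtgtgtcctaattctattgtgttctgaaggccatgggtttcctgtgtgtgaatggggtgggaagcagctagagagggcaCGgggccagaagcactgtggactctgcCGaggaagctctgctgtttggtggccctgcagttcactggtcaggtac
Zdbf2: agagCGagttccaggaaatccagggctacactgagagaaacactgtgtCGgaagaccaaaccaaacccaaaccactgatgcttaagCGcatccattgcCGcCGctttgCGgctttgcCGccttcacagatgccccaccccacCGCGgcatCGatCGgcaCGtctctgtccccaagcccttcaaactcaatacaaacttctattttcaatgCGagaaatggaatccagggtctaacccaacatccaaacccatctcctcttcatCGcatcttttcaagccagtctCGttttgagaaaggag

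These windows held 9 CpG in Dlk1, 13 in Meg3, 2 in Igf2 and 15 in Zdbf2, against a median of 7 and quartiles of 3 and 20 over all 32851 promoters of the RefSeq table. Igf2 has 4 listed starts, with 2 to 24 CpG, and Zdbf2 has 2 listed starts, with 15 and 38. The start used in these cells cannot be read from 1 probe set per gene. Over the 14 listed starts of the 8 genes with an entry (H19 and Cdkn1c have none), 4 held more than 20 CpG. The palindromic E-box CACGTG was found in 1 of the 14, that of Igf2r, and in 7.15% of all promoters; TGACTCA or its reverse complement TGAGTCA was found in 0 of the 14 and in 5.2% of all promoters. The letters say nothing of binding or methylation in these cells, which were not measured.

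The values are log2 RMA signals made by the authors. Each fraction was normalised to its own level, with means per array of 7.46 to 7.50 for the total fraction and 3.78 to 3.79 for the polysomal one, so the difference between a culture's polysomal and total values, here called translational efficiency (TE), has no absolute zero. Eif4e, the label check, averaged 9.05 ± 0.19 in transformed Het and 9.62 ± 0.20 in transformed WT cells, and 8.80 ± 0.10 in untransformed Het and 9.10 ± 0.10 in untransformed WT cells (log2 total RNA, SD, n = 3), without overlap between the genotypes in either state. The 12 fibroblast markers summed to 13.85 to 14.43 in transformed Het, 13.39 to 14.17 in transformed WT, 14.81 to 14.96 in untransformed Het and 14.89 to 15.01 in untransformed WT cells (log2 of the summed signal in total RNA). Of these markers 6 were called lower after transformation and 0 higher, where 15.8% of all genes were called lower and 15% higher. Markers of other cell types also differed: 4 of 6 tested leukocyte markers were called lower, and the neural list had 4 lower (among them Tubb3 at -2.54 and Stmn2 at -2.97) and 1 higher (Sox2 at 2.54) of 7. The endothelium list had 2 lower and 1 higher of 5, muscle 3 lower of 6, cartilage 1 lower of 4, adipocyte 1 lower and 1 higher of 5, epithelium 1 higher (Krt18 at 1.76) of 7 and liver 0 of 2. The summed leukocyte level ran from 9.85 to 10.1 in transformed Het, 10.2 to 11.6 in transformed WT, 10.2 to 10.5 in untransformed Het and 10.3 to 10.5 in untransformed WT cells. The part of these markers in the results below was not tested. In bulk RNA, fewer cells of a type and less RNA per cell cannot be told apart. Polysomal arrays were less alike than total RNA arrays, with median correlations to the other arrays of 0.900 to 0.942 against 0.960 to 0.977. The total RNA array least like the others was transformed WT embryo 1 (0.960), close to transformed WT embryo 2 (0.962). The polysomal arrays least like the others were untransformed WT embryo 1 (0.900) and transformed WT embryo 3 (0.923). The polysomal difference of Dlk1 is also given without these 2 polysomal arrays.

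The first question was how the imprinted genes changed on transformation by Ras and Myc. In total RNA, 6 of the 9 genes passed the test, 5 lower and 1 higher, where 30.8% of all 14830 genes passed (15% higher and 15.8% lower). Of the coding genes, Zdbf2, Igf2 and Grb10 fell, Dlk1 rose, and Peg3, Igf2r and Cdkn1c did not pass. The noncoding Rian and Meg3 fell. The count of 6 is a description, as the list was drawn up with earlier results of these arrays known. It includes Zdbf2, above the 40th percentile used as the filter in 0 of 6 transformed and 6 of 6 untransformed total RNA cultures. The median difference of the 9 genes was -0.91, against 0.03 over all genes tested (log2, transformed minus untransformed, mean of both genotypes). The test was limma with embryo as a block, with p-values adjusted over all genes by Benjamini and Hochberg and a call where the result was below 0.05.

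**Figure D1:**
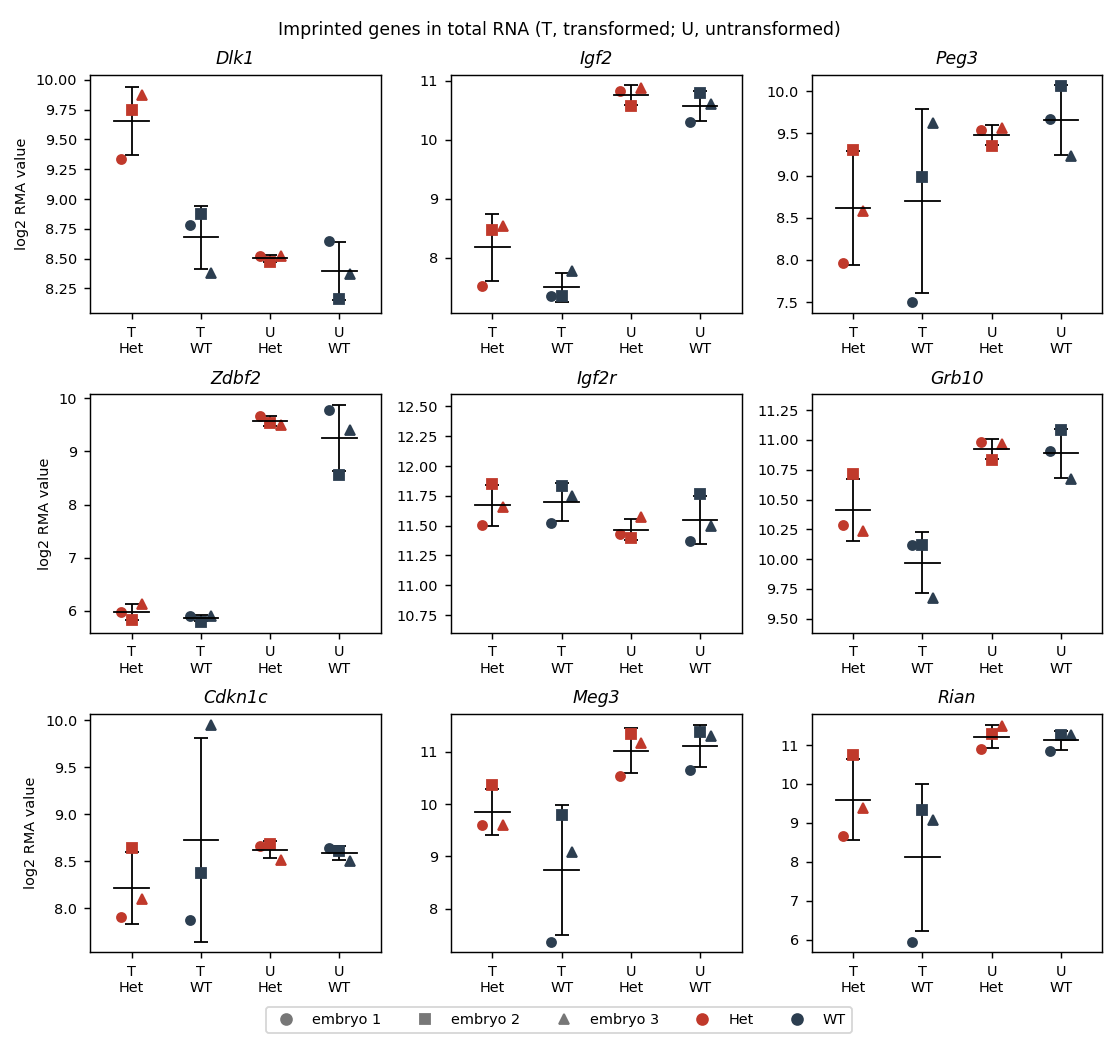
Log2 RMA values of the 9 measured imprinted genes in total RNA, one panel per gene with its own vertical axis. Points are single cultures, with the embryo shown by the marker's shape; horizontal lines and bars are the mean ± SD of 3 cultures, T is transformed and U untransformed. The transformed cultures of Zdbf2, Igf2, Meg3 and Rian all lie below the untransformed ones.

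The noncoding RNAs fell. Meg3, a long noncoding RNA studied as a growth suppressor, was at 9.59, 10.36 and 9.60 in transformed Het and 7.37, 9.79 and 9.08 in transformed WT cells, against 10.53, 11.34 and 11.17 in untransformed Het and 10.65, 11.38 and 11.30 in untransformed WT cells (log2 total RNA, embryos 1, 2 and 3). All 6 embryos were lower after transformation, and the states did not overlap, as in 17.5% of all genes. The difference was -1.76 ± 0.21 (SE; 0.294-fold; adjusted p = 0.00152, limma).

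Rian was at 8.67, 10.74 and 9.39 in transformed Het and 5.95, 9.34 and 9.07 in transformed WT cells, against 10.89, 11.29 and 11.48 in untransformed Het and 10.85, 11.26 and 11.27 in untransformed WT cells. Again all 6 embryos were lower after transformation and the states did not overlap. The difference was -2.31 ± 0.42 (SE; 0.201-fold; adjusted p = 0.00703, limma). The SD over 6 cultures was 1.58 in transformed and 0.25 in untransformed cells for Rian, and 1.03 in transformed and 0.38 in untransformed cells for Meg3. Without WT embryo 1 the SD in transformed cells was 0.78 for Rian and 0.46 for Meg3. The size of the fall ranged from 0.55 in Het embryo 2 to 4.89 in WT embryo 1 for Rian, and from 0.94 in Het embryo 1 to 3.28 in WT embryo 1 for Meg3. Without WT embryo 1 the differences were -1.84 for Rian (adjusted p = 0.00695) and -1.54 for Meg3 (adjusted p = 0.00223).

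The Dlk1 to Dio3 region, which carries paternally expressed coding genes and maternally expressed noncoding RNAs, held 10 called genes. By RefSeq gene order, 48 of its genes had a probe set and 22 passed the filter. Of the 22, 9 were called lower and 1 higher in total RNA, where 15.8% of all genes were lower and 15% higher; beside Meg3, Rian and Dlk1, 7 other genes were lower and 0 higher. The small nucleolar RNA genes DQ267102 and DQ267101, which follow Rian in gene order after Mir341 and Mir370, differed by -2.10 ± 0.36 (adjusted p = 0.00599) and -1.81 ± 0.20 (adjusted p = 0.00122). Rtl1, a retrotransposon-derived coding gene needed in the mouse placenta, differed by -0.56 ± 0.06 (adjusted p = 0.000971).

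Of 40 microRNA genes in the region, 24 did not pass the filter on low values, and among the 16 that did, 4 were called lower, where 15.8% of all genes were. They were Mir370 at -0.74 (adjusted p = 0.00141), Mir485 at -0.45 (adjusted p = 0.0039), Mir134 at -0.20 (adjusted p = 0.0356) and Mir668 at -0.21 (adjusted p = 0.0451). The array probes read RNA of the hairpin locus and do not measure the mature microRNA. The mature sequences of the 2 with the smallest p are shown with the seed (bases 2 to 8), which pairs with target mRNAs, in capitals; their seeds differ from each other.
miR-370-5p: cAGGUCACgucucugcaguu
miR-370-3p: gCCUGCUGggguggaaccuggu
miR-485-3p: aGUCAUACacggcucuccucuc

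Dio3, at the far end of the region, did not pass the filter. Dlk1, at the near end, was the single gene of the region called higher. Of the 9 genes of the region called lower, Meg3 and Rian included, 6 had their lowest transformed value in WT embryo 1, and 5 had their highest in Het embryo 2. The share of all genes with these extremes is not given here, so the counts are descriptions. Transformed WT embryo 1 was also the total RNA array least like the others (0.960). DQ267102 was at 9.88, 11.36 and 10.58 in transformed Het and 6.92, 10.06 and 9.86 in transformed WT cells, against 11.62 to 12.09 in untransformed Het and 11.57 to 12.03 in untransformed WT cells (log2 total RNA). Neighbouring transcripts of one region are not independent of each other.

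**Figure D2:**
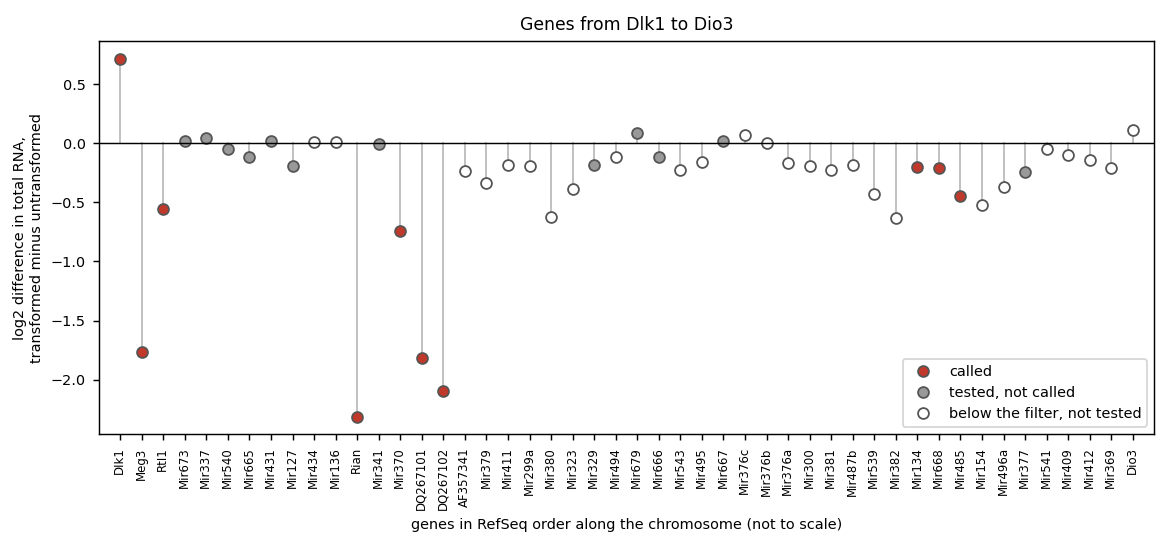
Log2 difference in total RNA, transformed minus untransformed, for the 48 genes with a probe set from Dlk1 to Dio3, in gene order and not to scale. Red points were called, grey points were tested and not called, and open points did not pass the filter on low values and were not tested; Dlk1 lies above 0 and Meg3, Rian and the small nucleolar RNA genes below.

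Dlk1, a membrane protein of the Notch ligand type that marks immature cells and holds back fat cell differentiation, was at 9.33, 9.75 and 9.88 in transformed Het and 8.78, 8.88 and 8.38 in transformed WT cells, against 8.52, 8.47 and 8.52 in untransformed Het and 8.65, 8.16 and 8.37 in untransformed WT cells (log2 total RNA). The 3 transformed Het cultures were the highest of the 12, and transformed WT cultures overlapped the untransformed ones. The difference over both genotypes was 0.72 ± 0.11 (SE; 1.64-fold; adjusted p = 0.00452, limma). Dlk1 was higher after transformation in 6 of 6 embryos, by 0.81, 1.28 and 1.36 in Het embryos and by 0.14, 0.71 and 0.00 in WT embryos 1, 2 and 3, so WT embryos 1 and 3 contributed little.

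Among the growth factor genes and their signalling partners, Igf2, the fetal insulin-like growth factor, fell in every culture. It was at 7.52, 8.48 and 8.54 in transformed Het and 7.35, 7.36 and 7.78 in transformed WT cells, against 10.83, 10.57 and 10.87 in untransformed Het and 10.30, 10.80 and 10.61 in untransformed WT cells (log2 total RNA). The states were separated by more than the range within either one. The difference was -2.82 ± 0.17 (SE; 0.141-fold; adjusted p = 0.000171, limma).

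Grb10, an adaptor that restrains insulin and IGF receptor signalling, was at 10.29, 10.71 and 10.24 in transformed Het and 10.12, 10.12 and 9.67 in transformed WT cells, against 10.98, 10.83 and 10.96 in untransformed Het and 10.91, 11.08 and 10.68 in untransformed WT cells. All 6 embryos were lower after transformation, although the states overlapped through Het embryo 2. The difference was -0.71 ± 0.09 (0.609-fold; adjusted p = 0.00197, limma). Igf2r, the receptor that clears Igf2 by taking it to lysosomes, ranged from 11.50 to 11.85 in transformed and from 11.37 to 11.76 in untransformed cells, a difference of 0.18 ± 0.07 (adjusted p = 0.0907). It was higher in 6 of 6 transformed cultures but did not pass the test. Airn, the paternally expressed antisense RNA that silences the paternal copy of Igf2r, rose, with a difference of 1.05 ± 0.13 in total RNA (adjusted p = 0.00162).

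Zdbf2, a paternally expressed gene with roles in the postnatal growth of mice, had the lowest difference of the 9. It was at 5.99, 5.83 and 6.14 in transformed Het and 5.90, 5.80 and 5.91 in transformed WT cells, against 9.68, 9.54 and 9.49 in untransformed Het and 9.77, 8.56 and 9.41 in untransformed WT cells (log2 total RNA). The transformed cultures lay between the 17.1 and 21.6 percentiles of their arrays and the untransformed ones between the 73.9 and 87.7 percentiles. The difference was -3.48 ± 0.14 (SE; 0.0896-fold; adjusted p = 4.11e-05, limma). In total RNA, Zdbf2 was above the 40th percentile used as the filter in 0 of 6 transformed and 6 of 6 untransformed cultures, so it passed through the state in which it was high, and a value this low can hide a larger fall.

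Peg3, a zinc finger protein of the paternally expressed group, was at 7.96, 9.31 and 8.58 in transformed Het and 7.50, 8.98 and 9.62 in transformed WT cells, against 9.53, 9.35 and 9.57 in untransformed Het and 9.67, 10.06 and 9.23 in untransformed WT cells. It was lower after transformation in 5 of 6 embryos, with WT embryo 3 higher. The difference of -0.91 ± 0.33 did not pass (adjusted p = 0.0818). Cdkn1c, the cyclin-dependent kinase inhibitor p57, was at 7.90, 8.64 and 8.09 in transformed Het and 7.87, 8.37 and 9.95 in transformed WT cells, against 8.66, 8.68 and 8.52 in untransformed Het and 8.64, 8.61 and 8.50 in untransformed WT cells. Transformed WT embryo 3 was the highest of the 12 cultures, and the difference of -0.13 ± 0.27 did not pass (adjusted p = 0.759).

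The next question was whether these changes were also found on polysomes. In polysomal RNA 4 of the 9 genes passed, all lower, where 7.72% of all genes passed (3.67% higher and 4.05% lower). Igf2, Peg3, Grb10 and Zdbf2 fell. The count of 4 is likewise a description. It includes Zdbf2, above the 40th percentile in 1 of 6 transformed and 4 of 6 untransformed polysomal cultures. Without the 2 polysomal arrays named above, the WT change rested on WT embryo 2 alone (0.90 for Dlk1), so no calls are given. Dlk1 then differed by 1.00. The Dlk1 changes left out were -0.31 in WT embryo 1 and 0.37 in WT embryo 3.

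**Figure D3:**
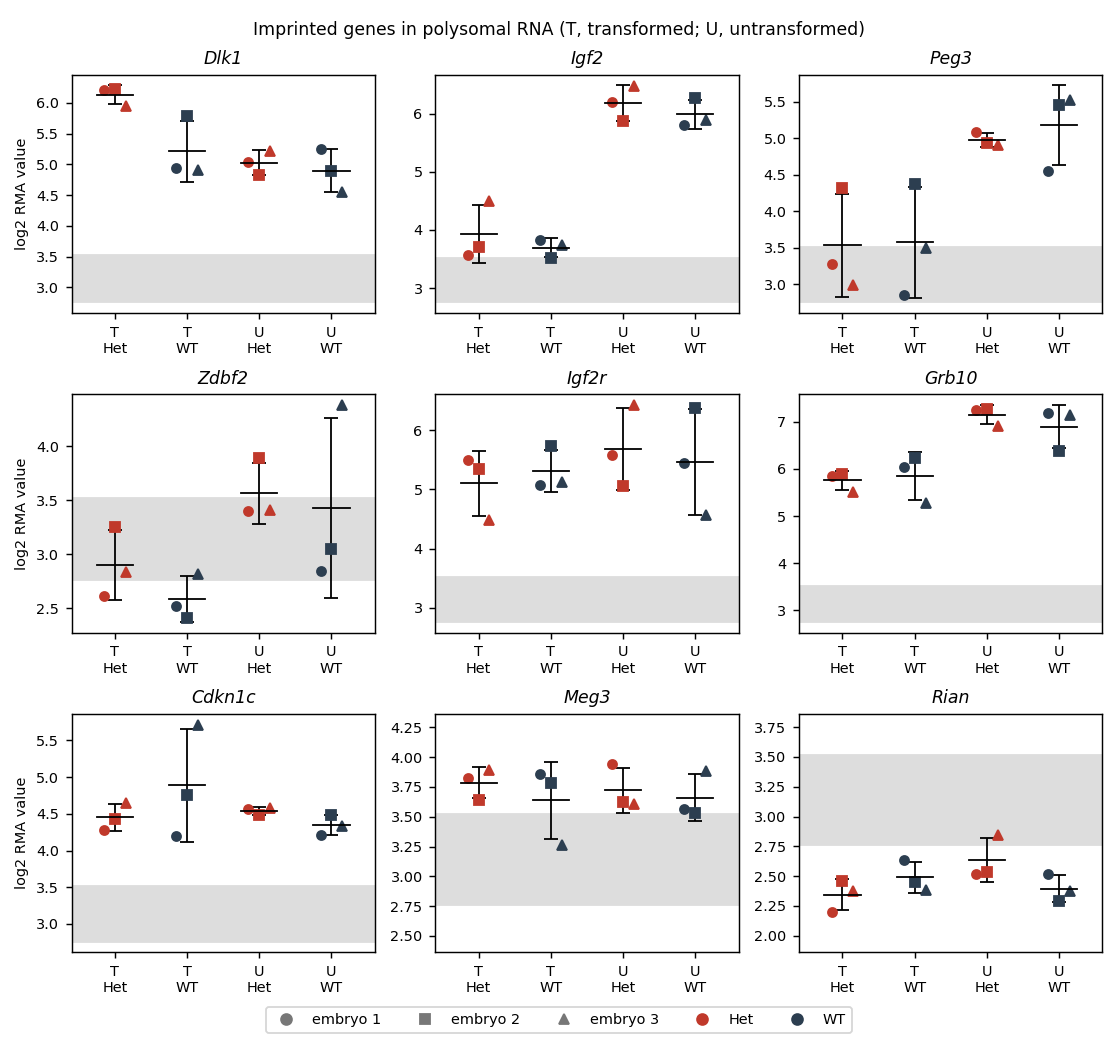
Log2 RMA values of the same genes in polysomal RNA, drawn as for total RNA with one vertical axis per gene. The grey band runs from the lowest 25th percentile to the highest median of the 12 polysomal arrays, 2.76 to 3.52; Rian lies below it or at its lower edge and Meg3 near or above its top, in both states.

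Igf2 was at 3.56, 3.71 and 4.49 in transformed Het and 3.82, 3.51 and 3.74 in transformed WT cells, against 6.19, 5.87 and 6.48 in untransformed Het and 5.81, 6.27 and 5.89 in untransformed WT cells (log2 polysomal RNA). The states did not overlap, as in 5.72% of all genes, and the difference was -2.28 ± 0.15 (0.206-fold; adjusted p = 0.000638, limma). Peg3 was at 3.28, 4.32 and 2.99 in transformed Het and 2.85, 4.37 and 3.50 in transformed WT cells, against 5.09, 4.93 and 4.91 in untransformed Het and 4.56, 5.46 and 5.53 in untransformed WT cells. Its states did not overlap either, and the difference was -1.52 ± 0.21 (0.348-fold; adjusted p = 0.00641).

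Grb10 was at 5.84, 5.90 and 5.52 in transformed Het and 6.03, 6.24 and 5.28 in transformed WT cells, against 7.25, 7.27 and 6.91 in untransformed Het and 7.17, 6.37 and 7.14 in untransformed WT cells. It was lower in all 6 transformed cultures without overlap, by -1.22 ± 0.21 (0.430-fold; adjusted p = 0.0136), though the call was lost without any one of the Het embryos, with adjusted p up to 0.0743. Zdbf2 was at 2.61, 3.25 and 2.83 in transformed Het and 2.52, 2.41 and 2.82 in transformed WT cells, against 3.40, 3.89 and 3.40 in untransformed Het and 2.84, 3.05 and 4.38 in untransformed WT cells. Its states overlapped, and the difference was -0.75 ± 0.17 (adjusted p = 0.0392, limma). This call was lost with quantile normalisation, median centring or no replicate block, and without WT embryo 2 or any one Het embryo.

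Dlk1 differed by 0.71 ± 0.18 in polysomal RNA, close to its 0.72 in total RNA, but did not pass (adjusted p = 0.0533); 5 of 6 embryos were higher. Meg3 and Rian did not pass in polysomal RNA. Meg3 ranged from 3.26 to 3.89 in transformed and from 3.53 to 3.94 in untransformed cells, a difference of 0.02 ± 0.16 (adjusted p = 0.972). Rian ranged from 2.20 to 2.63 in transformed and from 2.29 to 2.84 in untransformed cells, a difference of -0.10 ± 0.12 (adjusted p = 0.739). Rian lay between the 5.4 and 21.8 percentiles of its polysomal arrays, so a change there could not be read at this signal.

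In TE, 3 of the 9 genes passed, all higher after transformation, where 2.78% of all genes passed (1.81% higher). They were Zdbf2 at 2.73 ± 0.21 (adjusted p = 0.000563), Rian at 2.22 ± 0.37 (adjusted p = 0.0178) and Meg3 at 1.78 ± 0.26 (adjusted p = 0.011), each higher in 6 of 6 embryos. The call of Meg3 was lost without Het embryo 2 or 3 (adjusted p up to 0.0839) and that of Rian without any one Het embryo (adjusted p up to 0.119). The states did not overlap for Zdbf2 and Rian, where 3.59% of all genes did not overlap. Their total RNA fell, and in polysomal RNA 0 of the 3 were called higher. Rian was above the 40th percentile on 0 of 12 polysomal arrays, so its TE difference of 2.22 mirrors its total RNA difference of -2.31. The TE difference of Meg3 likewise mirrors its total RNA difference of -1.76, as its polysomal difference was 0.02. For Meg3 and Rian, which are noncoding, TE compares the fractions and is not a measure of translation. The count of 3 joins them with the coding gene Zdbf2 and is given as a description. Low values also enter the ratio for Rian, on the polysomal side, and for Zdbf2. In transformed cells Zdbf2 was low on both sides, above the 40th percentile in 0 of 6 total and 1 of 6 polysomal cultures. Its TE in those cells could not be read at this signal. The polysomal values lay between the 11.7 and 73.0 percentiles of the arrays for Zdbf2, between the 5.4 and 21.8 percentiles for Rian and between the 40.7 and 64.7 percentiles for Meg3. In untransformed cells Rian was between the 0.00674 and 0.0405 percentiles of TE over the 14830 genes tested. Meg3 was between the 0.115 and 1.23 percentiles.

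The other 6 genes, all coding, did not pass in TE. The polysomal values of Peg3 in transformed cells reached into the low range, from the 26.2 to the 74.6 percentile of the arrays. Those of Igf2 lay between the 53.9 and 76.9 percentiles. Dlk1 differed by -0.00 ± 0.18, Igf2 by 0.55 ± 0.15, Grb10 by -0.50 ± 0.22, Peg3 by -0.61 ± 0.33, Igf2r by -0.55 ± 0.26 and Cdkn1c by 0.36 ± 0.16, with adjusted p between 0.0986 and 0.993. A p above the threshold does not show that their TE stayed the same.

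**Figure D4:**
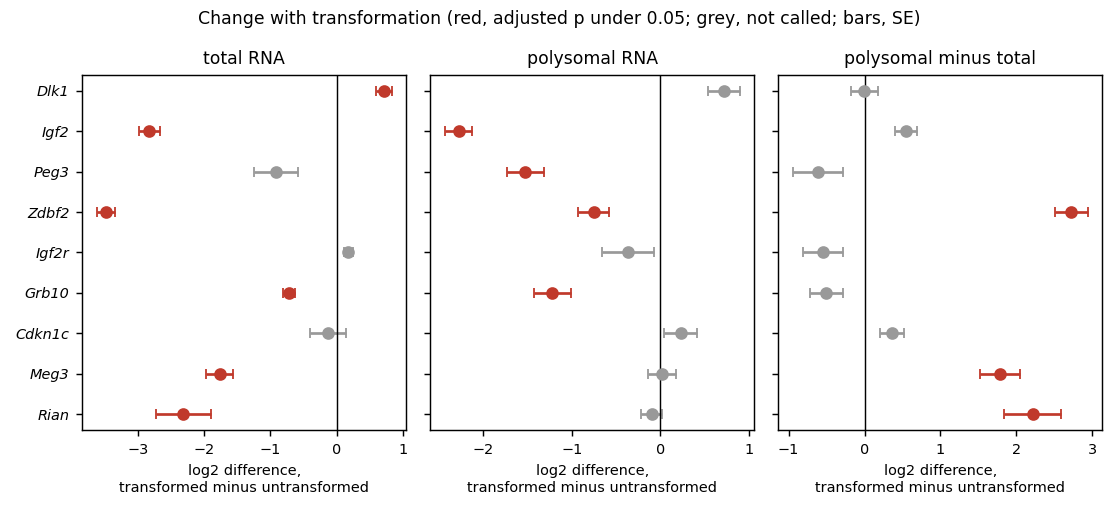
Log2 difference, transformed minus untransformed and averaged over both genotypes, of the 9 genes in total RNA, polysomal RNA and polysomal minus total; each panel has its own horizontal axis. Points are limma estimates from 6 embryos and bars their SE; red points have an adjusted p under 0.05. Igf2, Grb10 and Zdbf2 are red and left of 0 in both fractions, whereas Meg3 and Rian are left of 0 and red in total RNA alone among the fractions.

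The question that the mutant addresses is whether a lower dose of Eif4e changes these RNAs or their place on polysomes. In untransformed cells 0 of the 9 genes passed between Het and WT in total RNA, polysomal RNA or TE, where 0% of all genes passed in each (limma; 352, 247 and 215 genes had an unadjusted p under 0.05, none of them among the 9). In total RNA the differences ran from -0.17 for Peg3 to 0.32 for Zdbf2 (Het minus WT), and the genotypes overlapped for all 9, where 10.9% of all genes did not overlap. In polysomal RNA they ran from -0.20 for Peg3 to 0.25 for Grb10. Rian was the single gene whose genotypes did not overlap in untransformed polysomal RNA (2.52, 2.53 and 2.84 in Het and 2.51, 2.29 and 2.38 in WT cells), a pattern seen in 5.74% of all genes. In untransformed TE the genotypes overlapped for all 9, where 5.58% of all genes did not overlap. Eif4e itself was not called in these tests either, although its total RNA did not overlap between the genotypes. The 0 calls therefore do not show that the 9 RNAs were unchanged.

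In transformed cells, total RNA is given as a description with no test, because the list was drawn up with that comparison in view. Het minus WT was 1.48 for Rian, 1.11 for Meg3, 0.97 for Dlk1, 0.68 for Igf2, 0.44 for Grb10, 0.12 for Zdbf2, -0.03 for Igf2r, -0.08 for Peg3 and -0.52 for Cdkn1c. The genotypes did not overlap for Dlk1 and Grb10, 2 of 9 genes, where 10.2% of all genes did not overlap. For Rian and Meg3 much of the difference came from WT embryo 1: without it, Het minus WT was 0.40 for Rian and 0.42 for Meg3. For Cdkn1c it was 0.09 without WT embryo 3. Dlk1 without WT embryo 1 stood at 1.03. Its lowest transformed WT culture was that of WT embryo 3 at 8.38, and without that culture the difference would be smaller than 0.97.

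In polysomal RNA of the same transformed cultures, Dlk1 was at 6.21, 6.23 and 5.96 in Het and 4.94, 5.79 and 4.91 in WT cells. The genotypes did not overlap, as in 8.51% of all genes, and the difference was 0.92 ± 0.25 (Het minus WT, unadjusted p = 0.00307). It did not pass over all genes (adjusted p = 1, limma, where 478 genes had an unadjusted p under 0.05 and 0% were called). In untransformed cells Dlk1 was at 5.03, 4.82 and 5.23 in Het and 5.25, 4.89 and 4.55 in WT cells, which overlapped. The difference between the states' genotype effects was 0.79 ± 0.36 (unadjusted p = 0.0609). Polysomal and total RNA came from the same cultures, so these values are not independent of those that selected Dlk1.

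**Figure D5:**
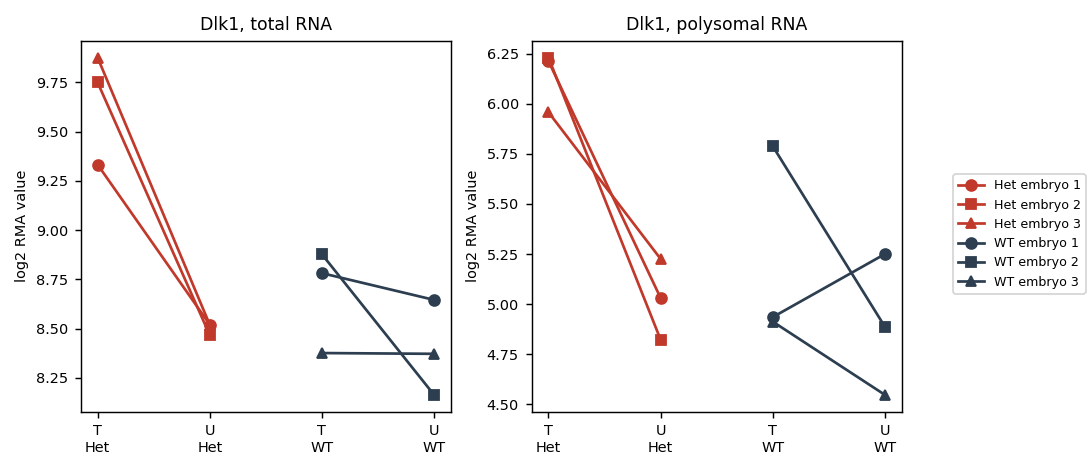
Log2 RMA values of Dlk1 in total and polysomal RNA, with a line joining the transformed (T) and untransformed (U) culture of each embryo. In transformed cells the 3 Het embryos lie above the 3 WT embryos in both fractions, and in untransformed cells the genotypes overlap.

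The other genes gave 0 calls between the genotypes in transformed polysomal RNA. TE in transformed cells contains the total RNA values of the comparison behind the list, so its genotype differences are given with no test. The genotypes did not overlap in TE for Grb10 alone of the 9, where 8.3% of all genes did not overlap: it was at -4.45, -4.81 and -4.72 in transformed Het and -4.09, -3.89 and -4.39 in transformed WT cells, a difference of -0.54. Dlk1 differed by -0.05 in TE, and Rian by -1.63 (Het minus WT), or -0.47 without WT embryo 1. In polysomal RNA the change of the genotype effect with transformation passed for 0 of the 9 genes (limma; 314 of all genes at an unadjusted p under 0.05, none of the 9). There Rian was lower after transformation in the 3 Het embryos and higher in the 3 WT embryos, a difference of -0.38 ± 0.24 (unadjusted p = 0.148) between values at the low end of the arrays.

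Related genes were counted from lists made with these results known. Over all genes tested, 30.8% were called in total RNA (15% higher and 15.8% lower) and 7.72% in polysomal RNA (3.67% higher and 4.05% lower). Of 18 other paternally expressed imprinted genes that passed the filter, 10 were called lower and 2 higher in total RNA after transformation. The smallest p belonged to Plagl1, a zinc finger regulator of other imprinted genes, at -1.04 ± 0.07 (adjusted p = 0.000269), Nnat, a small endoplasmic reticulum protein, at -1.28 ± 0.09 (adjusted p = 0.000320), Rtl1 and Airn. In polysomal RNA 3 of the 18 were called lower and 0 higher: Nnat at -2.10, Plagl1 at -1.11 and Slc38a4, an amino acid transporter, at -1.02. The median difference of the 18 in total RNA was -0.33.

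Of 22 other maternally expressed imprinted genes, several of them imprinted in placenta or brain alone, 6 were called lower and 4 higher in total RNA. They included Asb4 at -0.99, Tfpi2, a protease inhibitor of the extracellular matrix, at -3.53, Dlx5, a homeobox gene, at -0.88 and Atp10a, a lipid flippase, at 0.89. Their median difference was 0.05. Zim1, next to Peg3, was called lower at -1.35 ± 0.18 (adjusted p = 0.00225). In the clusters of H19 and Igf2 and of Kcnq1, 10 other genes were tested, with 1 called higher (Phlda2, a placental growth restrainer, at 0.48) and 1 lower (Osbpl5 at -0.27).

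Among 10 other genes of the imprinted gene network, a set reported to be co-regulated in mouse tissues, 6 were called lower and 2 higher in total RNA, with a median of -0.55. Gatm, an enzyme of creatine synthesis, was the higher one beside Phlda2, at 1.68 ± 0.22 (adjusted p = 0.00231). This list shares Plagl1, Nnat and others with the lists above and adds no separate count.

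Around Igf2, 22 other genes of IGF and insulin signalling were tested, and 9 were called lower and 3 higher in total RNA. Pappa, a protease that frees IGF from binding proteins, differed by -3.19 ± 0.23 (adjusted p = 0.000315), the binding protein Igfbp5 by -1.65 ± 0.12 (adjusted p = 0.000317), the ligand Igf1 by -1.62 ± 0.12 (adjusted p = 0.000357) and Igfbp7 by -2.12 ± 0.23 (adjusted p = 0.00109). In polysomal RNA 4 of the 22 were called lower and 1 higher, where 4.05% of all genes were lower and 3.67% higher. Igfbp7 (-3.18), Pappa (-1.78), the receptor Igf1r (-0.92) and the binding protein Igfbp3 (1.75) had the smallest p.

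Around Dlk1, 15 genes of the Notch pathway were tested, with 5 called lower and 2 higher in total RNA. The ligand Jag1 differed by -2.30 ± 0.27 (adjusted p = 0.00154), the target genes Hey2 by -1.21 ± 0.14 (adjusted p = 0.00153) and Hes1 by -0.95 ± 0.14 (adjusted p = 0.00331), and the ligand Jag2 by 0.42 ± 0.07 (adjusted p = 0.00624). Around Cdkn1c, 6 other cyclin-dependent kinase inhibitors were tested, with 2 higher (Cdkn2a at 0.83 and Cdkn2b at 0.34) and 2 lower (Cdkn1b at -0.44 and Cdkn3 at -0.42). Cdkn2a and Cdkn2b were also called higher in polysomal RNA, at 1.48 and 0.74.

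Of 13 genes that set or keep imprints, 2 were called, both higher in total RNA: Tet3, a 5-methylcytosine oxidase, at 0.36 and Dnmt1, the maintenance DNA methyltransferase, at 0.23; in polysomal RNA 0 were called. Of 7 genes of the let-7 and oncofetal list, 2 were called lower (Gpc3, a cell surface proteoglycan that restrains growth, at -1.18 and Igf2bp3 at -0.20) and 1 higher (Dis3l2, an exonuclease, at 0.31). Of 7 other long noncoding RNAs, 2 were called higher in total RNA, Airn and Mir17hg (0.82), and 0 lower. Against the 30.8% of all genes called, the counts in these short lists are descriptions.

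Some genes not on the list followed its members closely over the 12 total RNA arrays, measured as the root mean square difference after each gene was centred. The nearest to Dlk1 were Fam169a (0.192), Nr2f2 (0.208) and Tshz1 (0.219). The nearest to Meg3 were Thbs1 (0.298), Bgn (0.347) and S1pr1 (0.402), and to Igf2 P4ha3 (0.294), Mcam (0.324) and Epha3 (0.378). The 12 arrays share embryos and transformation state, so the likeness describes these cultures only.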

How the data were processed

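Per the submitters' processing notes and the series description, the authors deposited log2 RMA intensities; the RMA version, chip definition and array batches are not given in the sources used here. The table held 25668 probe sets on 24 arrays; 20777 probe sets carried 1 symbol in the platform annotation, 232 several and 4659 none, and only the first were used. The brightest probe set stood for a gene, and 14830 genes above the 40th percentile of the array on at least 3 arrays were tested. TE was log2 polysomal minus log2 total of one culture.

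limma 3.58.1 (lmFit, eBayes) in R 4.3.3 was fitted over all genes: 4 group means for genotype effects (8 residual degrees of freedom), embryo as a block for transformation effects and interactions (4). The embryos pair the states by the labels; deviations of an embryo's states correlated from -0.06 to 0.22 in total RNA and from -0.44 to 0.06 in polysomal RNA. The fit was tested on simulated total RNA values with independent noise and no embryo effect. Polysomal RNA, TE and the interaction were not simulated. The number of arrays limits the precision. The replicates were taken as separate embryos by the number after the genotype in the labels. The labels of all Het samples carry the same biological replicate number, whereas those of the WT samples differ by embryo.

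Members and lists were chosen with earlier results of these data known. Text names all listed genes, up to 4 called genes per related list by smallest p, and the 3 nearest genes of Dlk1, Meg3 and Igf2. H19 and 1 probe set shared by Rian and another gene were not analysed here. Sequences are RefSeq, GRCm38.p6; the array annotation names no build.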

Additional observations from a re-analysis of the deposited data

How the results depend on the processing

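The 6 calls of the listed genes in total RNA after transformation held in all 15 alternatives (quantile normalisation, median centring, 2 other filters, probe sets averaged or fitted singly, array weights, trended and robust variance, no replicate block, and each embryo left out), with Igf2 from -2.95 to -2.64 and Rian from -2.58 to -1.84. In polysomal RNA, Igf2 and Peg3 held in all of the same alternatives, and Grb10 was lost without any one of the Het embryos. Zdbf2 was lost with quantile normalisation, median centring or no replicate block, and without WT embryo 2 or any one Het embryo. Leaving out the 2 weakest polysomal arrays, chosen after seeing the data, rested the WT change on WT embryo 2 alone, so its calls are not counted. Leaving out 1 embryo gave 2 to 5 calls in place of 4, with 2 without Het embryo 1, 2 or 3. In TE, Zdbf2 held in all of the same alternatives, Meg3 was lost without Het embryo 2 or 3, and Rian without any one Het embryo. Leaving out 1 embryo gave 1 to 4 TE calls in place of 3, with 1 without Het embryo 2 or 3. Fewer embryos leave fewer degrees of freedom. Without the embryo as a block, the transformation counts were 6, 4 and 3 in total RNA, polysomal RNA and TE, and in polysomal RNA Dlk1 was then called (adjusted p = 0.0228) and Zdbf2 was not. Across genotypes the labels do not say that embryos of the same number belong together. A replicate block on the numbers gave 0 calls, and in at most 1 of 3 pairs did a Het array correlate best with the WT array of its number. Deviations in total RNA of Het and WT number 1 correlated at 0.48 in untransformed and 0.35 in transformed cells. For numbers 2 and 3 they correlated from -0.33 to 0.09. A factor shared by number was not tested. The transformed total RNA difference of Cdkn1c, Het minus WT, ran from -0.947 to 0.0939 with 1 embryo left out, the highest without WT embryo 3. Peg3 in total RNA passed with array weights (adjusted p = 0.0284) and Igf2r with quantile normalisation (adjusted p = 0.0407). No value changed sign among the called genes. Low polysomal signal limits Rian and Zdbf2, and Zdbf2 was also low in total RNA of transformed cells. Meg3 lay between the 40.7 and 64.7 percentiles of the polysomal arrays.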
